A study of Mus musculus with 16 samples.

Results

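Chemokines are small secreted proteins that steer white blood cells along gradients, and each is read by G protein-coupled receptors on the responding cell. The genes described here are the chemokine ligands and receptors named Ccl, Cxcl, Ccr or Cxcr in the mouse that had at least 10 read counts in at least 2 of the 16 libraries. Of 55291 genes in the count table, 53 bear such a name and 38 met the count rule, 25 of them ligands (15 Ccl and 10 Cxcl) and 13 of them receptors (8 Ccr and 5 Cxcr). The rule used the amount of reads alone and no difference between groups.

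CXC chemokines that bind Cxcr2, such as Cxcl1 and Cxcl2, draw neutrophils. Cxcl9, Cxcl10 and Cxcl11 bind Cxcr3 on activated T cells and NK cells and are classic interferon-response genes. Ccl2 and Ccl7 call Ccr2-bearing monocytes out of the blood, while Cxcl12 and its receptor Cxcr4 hold and position cells in tissue. In the liver, hepatocytes, sinusoidal endothelium, stellate cells and Kupffer cells (the resident macrophages) can all release chemokines, and the receptors mostly lie on immune cells.

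Polyadenylated RNA was sequenced from whole mouse liver and from isolated liver tumours, in 8 groups of 2 libraries. Livers were wild type (WT), Arid1a knockout (KO) or Arid1a/b double knockout (DKO), where Arid1a and Arid1b encode DNA-binding subunits of the SWI/SNF chromatin remodeller. WT, KO and DKO livers were taken 9 days after tamoxifen, and WT and KO livers 30 days after it, all with the vehicle DMSO. Further WT and KO livers at 30 days received an agonist of the receptor spelled NR1L3 in the series text. The WT agonist livers carry 9 days in their titles and 30 days elsewhere in their labels, and were taken as 30-day livers. The tumours have the genotype Arid1a KO/BcatEXON, with no time or treatment given. The sample descriptions of the 6 WT livers carry the prefix ALB, which the labels do not explain. No Cre driver and no ages of the animals are stated, and the labels call the cells hepatocytes although the series describes whole tissue; markers of Kupffer cells and endothelium were found in every liver group.

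Library totals ran from 7.57 M to 47.8 M counts, and replicate 1 was the shallower library in every group. Levels are CPM, counts divided by the library total in M after scaling by the TMM method, and the values of a group are given as replicate 1 and replicate 2 (n = 2). A level of 3 counts corresponded to 0.0481 to 0.362 CPM. Counts summed over all exons of Arid1a were 68.6 to 95.2 CPM in the 6 KO livers and 72.1 to 104.7 CPM in the 6 WT livers. The labels do not name the deleted exons, so that level does not check the genotype, and groups are named as labelled. For Arid1b the DKO values were 24.5 and 25.7 CPM, below the range of 38.03 to 60.3 CPM in WT liver.

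Per kilobase of exon, 2 ligands stood far above the rest in liver. Ccl9, a CC ligand of Ccr1 made by myeloid cells, had a median of 72.3 CPM per kb over the 14 livers, with a range of 7.65 to 109 CPM per kb. Cxcl12 had a median of 52.2 CPM per kb and the narrower range of 24.4 to 74.3 CPM per kb. Next came Ccl6 (8.43 CPM per kb), Cxcl1 (7.71), Cxcl9 (6.44), Cxcl10 (5.89) and Cxcl16 (4.34), whose ranges overlapped one another. The ligand Ccl6 spanned 1.54 to 110.5 CPM per kb, reaching the top of the Ccl9 range. Receptors were lower: the highest was Cxcr4 at a median of 1.55 CPM per kb, while Ccr3 had 1.09 and Ccr2 0.862 CPM per kb. At the low end, Ccl11 and Cxcl17 had medians of 0.0300 and 0.0457 CPM per kb. In bulk tissue, fewer cells of a type and less RNA per cell cannot be told apart.

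**Figure D1:**
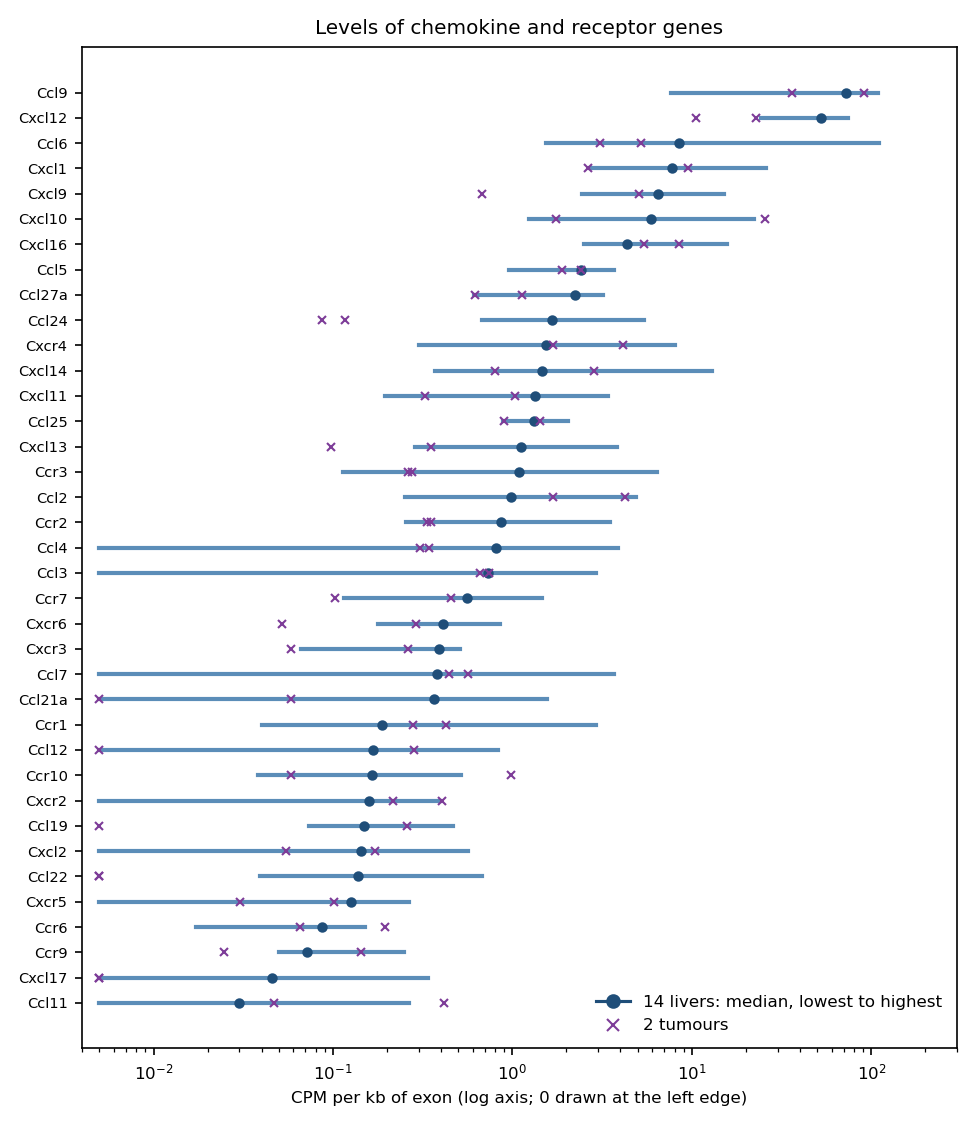
Levels of chemokine and receptor genes in CPM per kilobase of exon on a log axis, ordered by the median over 14 livers (blue point; the bar spans the lowest to the highest liver), with the 2 tumours as crosses and values of 0 drawn at the left edge. Ccl9 and Cxcl12 lead with medians of 72.3 and 52.2 CPM per kb, and both tumours lie below every liver for Cxcl12 and Ccl24.

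Most members sit in gene clusters of the GRCm38 genome, with neighbours no more than 500 kb apart. Chromosome 11 holds Ccl2, Ccl7, Ccl11 and Ccl12 between positions 82035571 and 82103400, and Ccl5, Ccl9, Ccl6, Ccl3 and Ccl4 between 83525778 and 83664683. Chromosome 5 holds Cxcl1 and Cxcl2 (90891241 to 90905938) and, separately, Cxcl9, Cxcl10 and Cxcl11 (92321347 to 92365485). The receptors Ccr9, Cxcr6, Ccr1, Ccr3 and Ccr2 lie in a cluster on chromosome 9. Exons of Ccl25, Ccl27a, Ccr9, Cxcl10, Cxcl11, Cxcl16 and Cxcr5 overlap exons of another gene on the opposite strand (Elavl1, Il11ra1, Slc6a20a, Art3, Gm2673, Zmynd15 and Bcl9l, in that order). The sources used here do not give the strand setting of the counting, so the values of these 7 genes are uncertain. Ccl27a and Ccl21a also have near-identical copies in the genome. The named copies Ccl21b, Ccl21d and Ccl27b had 0 counts in every library. How reads that match several copies were counted was not examined.

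Promoters of 4 ligands are shown because their levels differed most clearly between groups or because they carry the binding motifs of the pathways that induce chemokines. RefSeq promoters (GRCm38.p6) were given for 25 of the 38 members, and the 250 bases before each start were searched on both strands. The interferon-stimulated response element, searched as a pair of GAAA stretches 2 bases apart, was present in 2.98% of all 32851 promoters and in those of 3 members, Ccl19, Cxcl10 and Cxcl14. The NF-kappaB consensus motif was present in 3.9% of all promoters and in those of 6 members, Ccl9, Ccr3, Ccr6, Cxcl1, Cxcl2 and Cxcl10; matches on the 2 strands can overlap. The sequences below run 5′ to 3′ on the gene's strand and end at the base before the start, with motif matches in capitals. Cxcl10 (chr5:92348890-92349139, minus strand) holds the response element, whose first base lies 213 bases before the start, and then 2 NF-kappaB matches, at 159 and 103 bases before it. Cxcl1 (chr5:90890995-90891244, plus strand) holds a pair of overlapping NF-kappaB matches that begin 71 bases before the start. Cxcl9 (chr5:92328080-92328329, minus strand) and Cxcl12 (chr6:117168285-117168534, plus strand) hold no match to these letters in this window.
Cxcl10: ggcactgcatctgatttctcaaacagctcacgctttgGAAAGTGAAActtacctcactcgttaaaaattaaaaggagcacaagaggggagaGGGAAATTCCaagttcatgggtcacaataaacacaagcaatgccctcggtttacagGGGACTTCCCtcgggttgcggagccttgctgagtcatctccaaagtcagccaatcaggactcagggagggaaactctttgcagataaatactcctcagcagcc
Cxcl1: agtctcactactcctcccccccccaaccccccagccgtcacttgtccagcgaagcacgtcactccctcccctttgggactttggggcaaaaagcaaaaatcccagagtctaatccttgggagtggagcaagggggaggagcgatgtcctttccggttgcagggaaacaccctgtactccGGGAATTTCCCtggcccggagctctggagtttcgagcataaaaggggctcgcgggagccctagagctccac
Cxcl9: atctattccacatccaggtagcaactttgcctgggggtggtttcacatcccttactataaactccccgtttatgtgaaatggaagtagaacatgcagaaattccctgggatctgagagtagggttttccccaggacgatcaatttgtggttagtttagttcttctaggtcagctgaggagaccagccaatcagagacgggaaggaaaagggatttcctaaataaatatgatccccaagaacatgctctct
Cxcl12: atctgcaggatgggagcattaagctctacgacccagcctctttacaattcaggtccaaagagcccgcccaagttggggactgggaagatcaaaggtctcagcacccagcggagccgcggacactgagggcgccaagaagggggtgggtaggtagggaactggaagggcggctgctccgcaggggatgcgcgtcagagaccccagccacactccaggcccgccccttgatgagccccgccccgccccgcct

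Of the 38 members, 33 (21 ligands and 12 receptors) passed the low-count filter and were tested with the 17831 liver genes, while Ccl11, Ccl12, Ccl19, Cxcl17 and Ccr6 were too low. A gene was called at an edgeR quasi-likelihood adjusted p under 0.05, with Benjamini-Hochberg adjustment over all genes tested. Loss of both Arid1a and Arid1b changed the most members among the liver comparisons. Against WT, 9 of 33 members were called in DKO liver, 6 higher and 3 lower, where 26.4% of all genes were called (12.6% higher and 13.8% lower). Against KO, 10 of 33 members were called in DKO liver, 5 higher and 5 lower, where 22% of all genes were called (9.92% higher and 12.1% lower). Both shares of members (27.3% and 30.3%) lay near those of all genes. The pair of comparisons shares the DKO libraries.

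Loss of Arid1a alone changed no member by edgeR at 9 days (0 of 33, against 0.566% of all genes). An unadjusted p under 0.05 was reached by 1 member and by 10.6% of all genes. DESeq2 called 0 members (2.69% of all genes). At 30 days edgeR again called 0 of 33 members (0.516% of all genes). There 7 members had an unadjusted p under 0.05, as did 9.43% of all genes. DESeq2, which called 2.31% of all genes, called 3 members, Cxcl9, Cxcl10 and Ccl9. The agonist gave 0 of 33 edgeR calls in WT (0.028% of all genes) and 0 of 33 in KO (0.869%). An unadjusted p under 0.05 was reached by 4 members in each, and by 3.66% of all genes in WT and 12.9% in KO. DESeq2 called 0 members in each, and 0.623% and 3.76% of all genes. With both genotypes under agonist, 2 of 33 members were called, both higher in KO and 0 lower, against 4.95% of all genes (3.05% higher and 1.91% lower). The test of whether the agonist effect differed between KO and WT called 0 of 33 members (0.00561% of all genes). It had 3 members at an unadjusted p under 0.05 (5.58% of all genes) and 0 called by DESeq2 (0.74% of all genes). The test of whether the KO effect differed between 30 and 9 days called 0 of 33 (0% of all genes). It had 0 members at an unadjusted p under 0.05 (1.81% of all genes) and 0 called by DESeq2 (0.00561% of all genes). In that last test the smallest p belonged to Ccl22 (log2 2.36 ± 1.25) and Ccl3 (2.90 ± 1.54), both at an edgeR adjusted p of 1.0.

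Tumours, tested over 18193 genes in all 16 libraries, differed from WT liver of 30 days in 8 of 33 members, 5 higher and 3 lower, where 30.2% of all genes were called (16.3% higher and 13.8% lower). Against KO liver of 30 days, 4 of 33 members were called, 1 higher and 3 lower, where 25.1% of all genes were called (12.9% higher and 12.2% lower). The median log2 fold change of the 33 members was −0.86 in the latter comparison, and that of all genes was −0.0033. Only the 2-library tumour group is shared between these comparisons, while the 30-day livers also serve the KO and agonist comparisons.

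**Figure D2:**
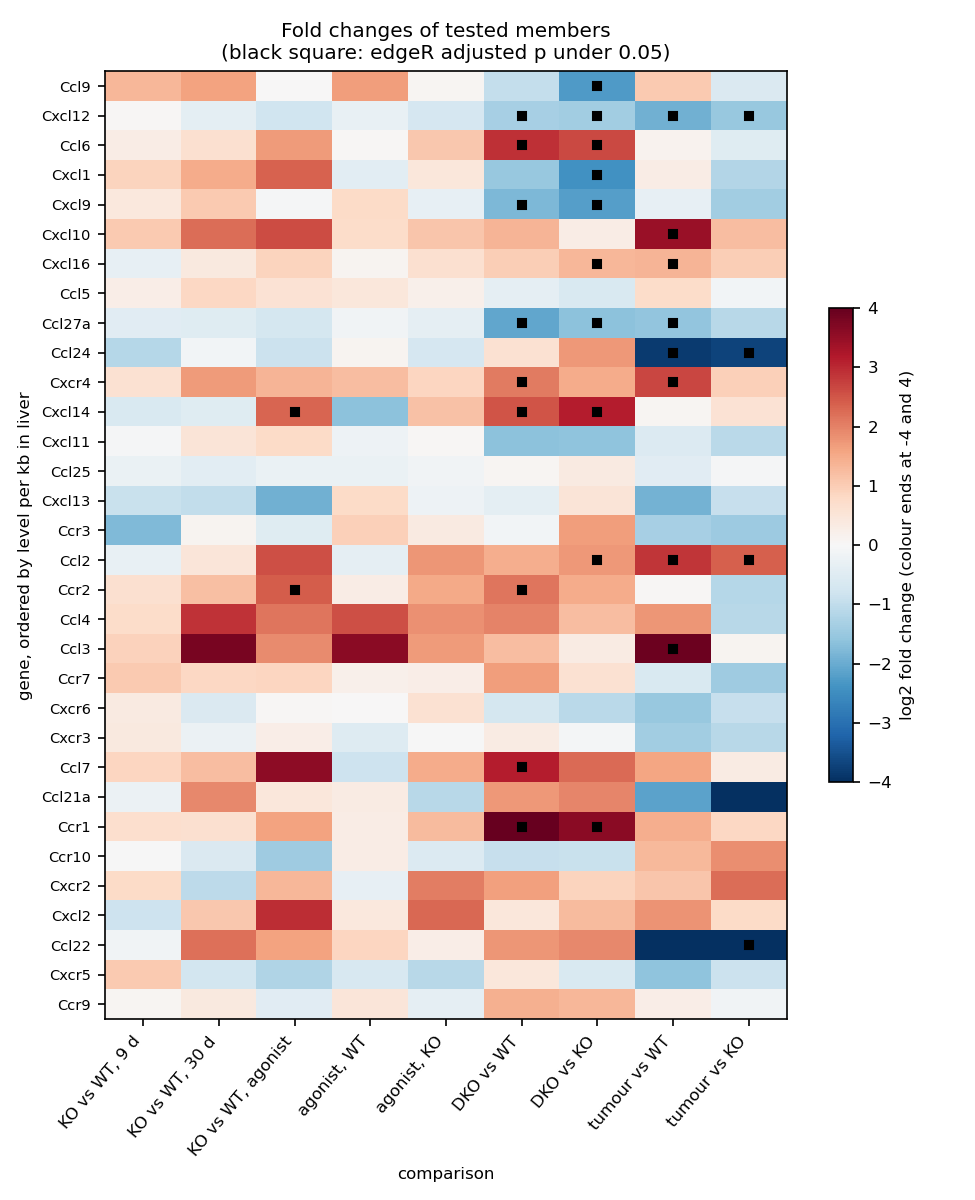
Log2 fold changes of tested members (rows, ordered by level per kb in liver) in 9 comparisons (columns), red for higher and blue for lower, with the colour ending at −4 and 4; a black square marks an edgeR adjusted p under 0.05. Calls cluster in the DKO and tumour columns, with 9, 10, 8 and 4 squares, and fitted values of Ccl3, Ccl4, Ccl7, Ccl21a, Ccl22 and Cxcl2 rest in some columns on groups with 0 to 3 counts.

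Cxcl12, which holds leukocytes and progenitors in tissue through Cxcr4, fell in DKO liver and in tumours. It stood at 571 and 458 CPM in WT liver of 9 days and at 557 and 503 CPM in KO liver, but at 199.7 and 206.8 CPM in DKO liver. The DKO libraries lay below all others in liver, and the log2 fold change was −1.34 ± 0.22 (SE) against WT (edgeR adjusted p = 0.00183) and −1.38 ± 0.22 against KO (edgeR adjusted p = 0.00178). In WT liver of 30 days it stood at 430 and 608 CPM and in KO liver at 427 and 360 CPM, against 86.0 and 186.9 CPM in the tumours. The tumour change was −1.92 ± 0.32 against WT (edgeR adjusted p = 0.00133) and −1.52 ± 0.32 against KO (edgeR adjusted p = 0.00554). KO liver under agonist, at 216 and 272 CPM, did not overlap WT liver under agonist, at 426 and 426 CPM, but the log2 fold change of −0.80 ± 0.22 missed the threshold (edgeR adjusted p = 0.0598). All 4 calls held when any library was left out; that of tumours against KO ended when the compared libraries were fitted alone (edgeR adjusted p = 0.0767).

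The receptor Cxcr4 was higher than in WT liver in those tissues, while against KO liver it was not called. It stood at 1.13 and 3.40 CPM in WT liver of 9 days and at 14.6 and 5.11 CPM in DKO liver, which did not overlap. The rise had a log2 fold change of 2.08 ± 0.63 (edgeR adjusted p = 0.0334), and it lost its call without DKO replicate 1 (log2 1.13, edgeR adjusted p = 0.263) or WT replicate 1 (1.53, 0.201). Against KO liver of 9 days, at 4.52 and 2.65 CPM, the difference was 1.48 ± 0.62 (edgeR adjusted p = 0.111). In tumours Cxcr4 stood at 7.44 and 3.03 CPM, against 1.15 and 0.545 CPM in WT liver of 30 days, a log2 fold change of 2.67 ± 0.74 (edgeR adjusted p = 0.0178). That call ended without tumour replicate 1, without either WT library, and with the 9-day WT livers as control (log2 1.15, edgeR adjusted p = 0.218). Against KO liver of 30 days, at 2.28 and 2.95 CPM, the tumour difference was 0.97 ± 0.67 (edgeR adjusted p = 0.312). Both calls against WT also ended when the compared libraries were fitted alone (edgeR adjusted p = 0.0873 in DKO liver and 0.0529 in tumours).

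Cxcl14, a ligand found in epithelia and stroma whose receptor is still debated, was higher in DKO liver. It stood at 23.8 and 10.2 CPM there, against 4.10 and 2.00 CPM in WT liver and 1.78 and 2.09 CPM in KO liver of 9 days. Every DKO value exceeded the values in the other 12 livers, and the log2 fold change was 2.51 ± 0.54 against WT (edgeR adjusted p = 0.00748) and 3.13 ± 0.55 against KO (edgeR adjusted p = 0.00329). Under agonist Cxcl14 was higher in KO liver (5.90 and 4.0 CPM) than in WT liver (1.45 and 0.679 CPM), by a log2 fold change of 2.32 ± 0.59 (edgeR adjusted p = 0.0479). It was also the member with the smallest unadjusted p in the test of an unequal agonist effect (log2 2.82 ± 0.80, edgeR adjusted p = 0.502), which it did not pass. The call against WT ended without DKO replicate 1 (edgeR adjusted p = 0.0555) or WT replicate 2 (0.0594), and that under agonist ended when any of its 4 libraries was left out (edgeR adjusted p 0.0743 to 0.352); the call against KO held in each case.

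Ccl27a, known as a skin chemokine for Ccr10-bearing T cells, was lower in DKO liver and tumours. It stood at 6.75 and 6.71 CPM in WT liver of 9 days, at 6.59 and 3.41 CPM in KO liver and at 1.46 and 1.70 CPM in DKO liver. The fall in DKO was −2.08 ± 0.36 on the log2 scale against WT (edgeR adjusted p = 0.00235) and −1.64 ± 0.36 against KO (edgeR adjusted p = 0.00915), and the call against WT held when any library was left out. Tumours had 1.47 and 2.68 CPM, a log2 fold change of −1.59 ± 0.41 against WT liver of 30 days (edgeR adjusted p = 0.0120) and of −1.11 ± 0.41, not called, against KO (edgeR adjusted p = 0.0638). Without DKO replicate 1 or KO replicate 1 the call against KO ended (edgeR adjusted p = 0.0572 and 0.0912), and without tumour replicate 1 or WT replicate 2 so did that in tumours (0.0691 and 0.103). Its receptor Ccr10 was not called in any comparison and reached at most 0.888 CPM in liver. Ccl25, the thymus and gut ligand of Ccr9, was the steadiest member, with 6.58 to 15.1 CPM over the 14 livers, and was not called anywhere (lowest edgeR adjusted p = 0.368). Ccr9 stood at 2.56 and 1.70 CPM in DKO liver and at 0.724 and 0.859 CPM in WT liver of 9 days (log2 1.41 ± 0.54, edgeR adjusted p = 0.0776).

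**Figure D3:**
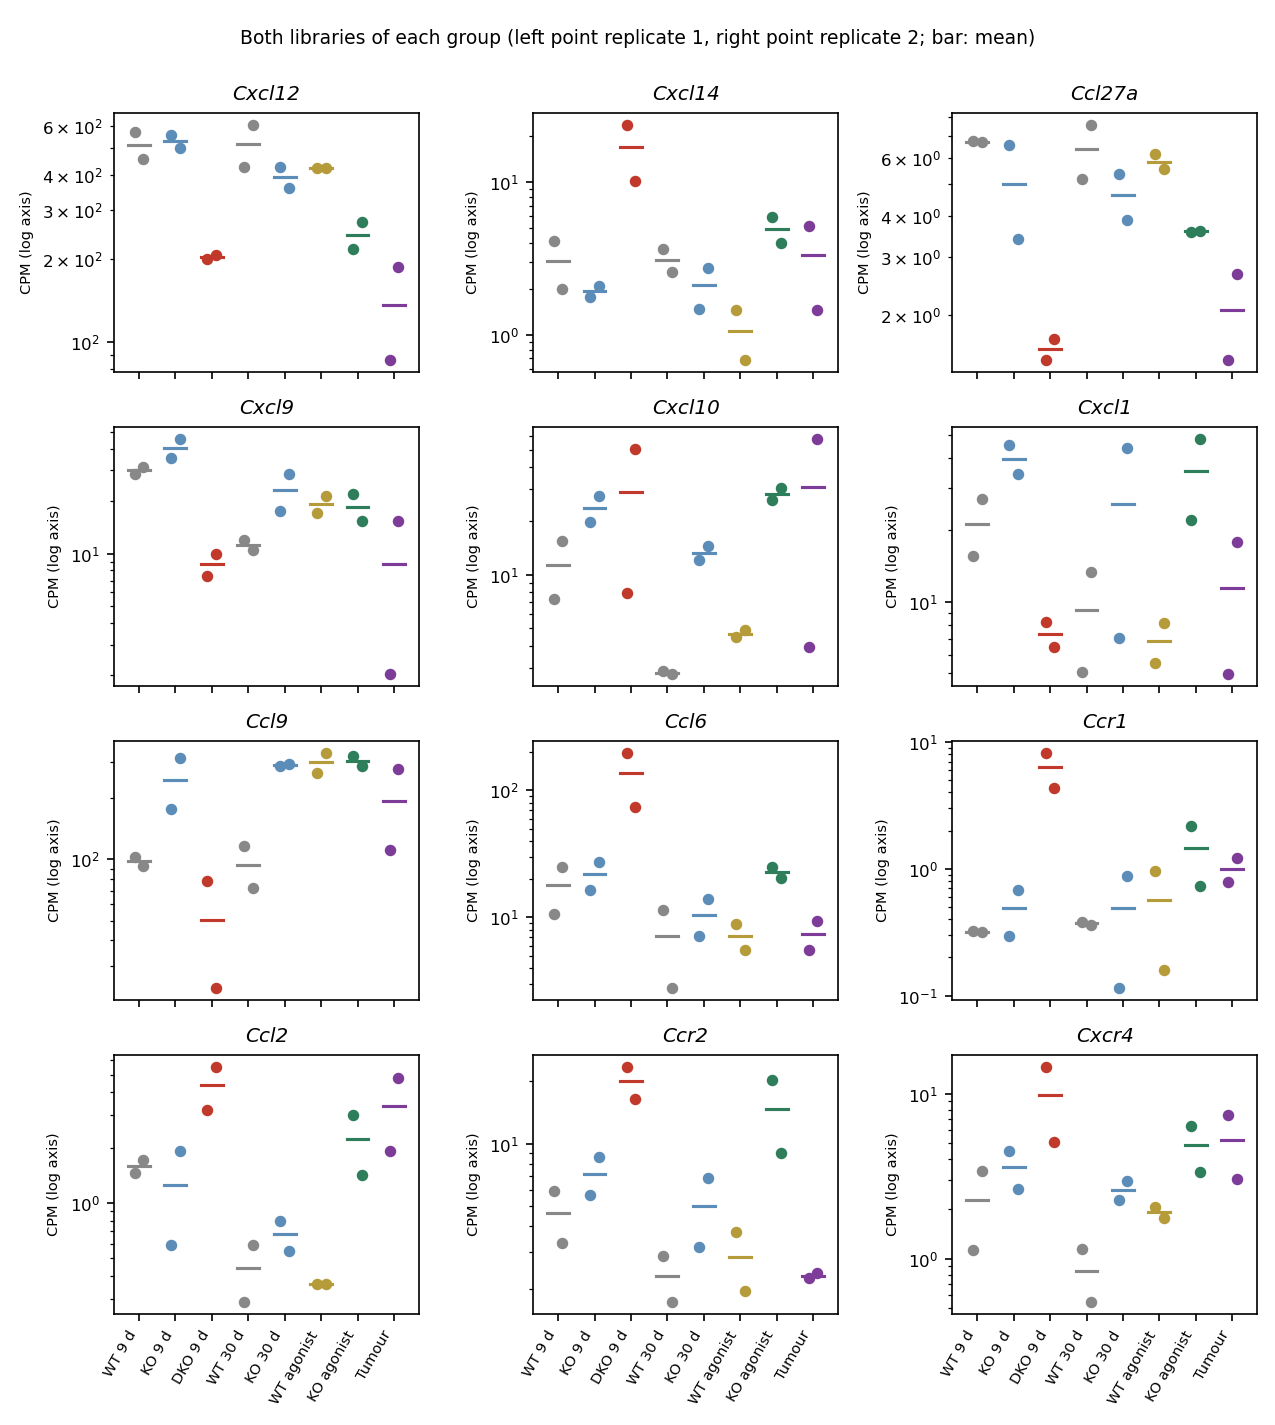
CPM on a log axis of 12 members in the 8 groups, with replicate 1 as the left point, replicate 2 as the right point and the mean as a bar. In DKO liver Cxcl12 (199.7 and 206.8 CPM), Cxcl9 and Ccl27a lie below the 9-day WT and KO libraries, while Cxcl14, Ccl6, Ccr1 and Ccr2 lie above them.

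Cxcl9 was the only Cxcr3 ligand called in DKO liver. Cxcl9 stood at 28.8 and 31.6 CPM in WT liver of 9 days and at 35.3 and 45.6 CPM in KO liver, and fell to 7.40 and 9.92 CPM in DKO liver. The log2 fold change was −1.80 ± 0.28 against WT (edgeR adjusted p = 0.00142) and −2.22 ± 0.29 against KO (edgeR adjusted p = 5.15e-04), and both calls held when any library was left out. Cxcl10, its neighbour on chromosome 5, stood at 7.88 and 50.3 CPM in the same DKO livers, 1 below and 1 above the KO values of 19.7 and 27.7 CPM. Its log2 fold change against WT (7.32 and 15.4 CPM) was 1.35 ± 0.63 and was not called (edgeR adjusted p = 0.136). Cxcl11 stood at 0.740 and 4.71 CPM in DKO liver and at 12.9 and 4.55 CPM in WT liver (log2 −1.65 ± 0.74, edgeR adjusted p = 0.124).

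At 30 days Cxcl9 and Cxcl10 were higher in KO than in WT liver without passing the edgeR threshold. Cxcl11, also not called, stood at 2.78 and 5.04 CPM in WT and at 5.82 and 5.54 CPM in KO liver. Cxcl9 stood at 11.9 and 10.5 CPM in WT and at 17.6 and 28.7 CPM in KO liver, a log2 difference of 1.06 ± 0.28 (edgeR adjusted p = 0.170). Cxcl10 stood at 2.88 and 2.77 CPM in WT and at 12.1 and 14.4 CPM in KO liver (log2 2.24 ± 0.69, edgeR adjusted p = 0.255). Under agonist the Cxcl10 values were 4.47 and 4.88 CPM in WT liver and 26.3 and 30.4 CPM in KO liver, again without overlap (log2 2.60 ± 0.68, edgeR adjusted p = 0.0526). This difference was called by DESeq2 (adjusted p = 0.000967), by limma (adjusted p = 0.0434) and when edgeR was fitted to the compared libraries alone (adjusted p = 0.0126). With all 16 libraries in the fit it was not called. Over all named members of this comparison, 44 fold changes under an alternative gave 25 on the same side of the threshold. Of the rest, 10 lost and 9 gained a call. For Cxcl9 the agonist groups overlapped, at 17.0 and 21.3 CPM in WT liver and 21.9 and 15.4 CPM in KO. The test of an unequal agonist effect for Cxcl9 gave a log2 difference of −1.10 ± 0.40 (edgeR adjusted p = 0.756).

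In tumours Cxcl10 split widely, with 3.95 CPM in replicate 1 and 57.7 CPM in replicate 2, against 2.88 and 2.77 CPM in WT liver of 30 days. The log2 fold change was 3.47 ± 1.02 (edgeR adjusted p = 0.0237). It was 0.44 (edgeR adjusted p = 0.729) without tumour replicate 2, and the call also ended without either WT library, with limma, when the compared libraries were fitted alone (edgeR adjusted p = 0.0679) and with the 9-day WT livers as control (log2 1.45, edgeR adjusted p = 0.260). Cxcl9 likewise stood at 2.03 and 15.3 CPM in the tumours and was not called against KO liver (log2 −1.38 ± 0.59, edgeR adjusted p = 0.105). The receptor Cxcr3 stayed between 0.114 and 0.882 CPM in liver and was not called in any comparison (lowest edgeR adjusted p = 0.285).

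Among the neutrophil ligands Cxcl1 was the abundant one, and it was lower in DKO than in KO liver. It stood at 45.5 and 34.2 CPM in KO liver of 9 days, at 15.5 and 26.9 CPM in WT and at 8.26 and 6.44 CPM in DKO liver. The log2 fold change was −2.43 ± 0.73 against KO (edgeR adjusted p = 0.0356), a call that ended when any of the 4 libraries was left out (edgeR adjusted p 0.0842 to 0.149), and −1.53 ± 0.71 against WT (edgeR adjusted p = 0.133). In vehicle liver of 30 days the KO replicates of Cxcl1 differed by more than the group means, with 5.08 and 13.4 CPM in WT liver and 7.08 and 44.2 CPM in KO. Under agonist the groups did not overlap, at 5.56 and 8.15 CPM in WT liver and 22.1 and 48.3 CPM in KO (log2 2.35 ± 0.74, edgeR adjusted p = 0.0941). Cxcl2 reached at most 1.17 CPM and Cxcr2 at most 1.20 CPM in liver, and neither was called. Cxcl5 fell short of the count rule. Summed over 8 neutrophil markers, the DKO livers had 70.9 and 34.7 CPM and the 9-day WT livers 16.2 and 19.1 CPM. Of 7 tested markers 1 was called higher, Retnlg, as were 12.6% of all genes.

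Genes of the monocyte axis were called higher in DKO liver, in KO liver under agonist (the receptor Ccr2) and in tumours (the ligand Ccl2). The receptor Ccr2 stood at 23.6 and 16.4 CPM in DKO liver, at 5.95 and 3.34 CPM in WT and at 5.70 and 8.66 CPM in KO liver of 9 days. The log2 fold change against WT was 2.13 ± 0.53 (edgeR adjusted p = 0.0153), and that against KO, 1.48 ± 0.52, was not called (edgeR adjusted p = 0.0638). Under agonist Ccr2 stood at 20.3 and 9.03 CPM in KO and at 3.75 and 1.96 CPM in WT liver, a log2 fold change of 2.41 ± 0.56 (edgeR adjusted p = 0.0347). The DKO call ended without DKO replicate 1 (edgeR adjusted p = 0.0739) or WT replicate 2 (0.104). The agonist call ended without KO replicate 1 (0.225) or either WT library (0.0765 and 0.282).

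Ccl2, the main Ccr2 ligand, stood at 3.20 and 5.53 CPM in DKO liver, above WT (1.45 and 1.72 CPM) and KO liver (0.592 and 1.92 CPM) of 9 days. It was called against KO (log2 1.75 ± 0.57, edgeR adjusted p = 0.0485) and not against WT (1.46 ± 0.56, edgeR adjusted p = 0.0780). The call against KO ended with all 16 libraries in the fit (edgeR adjusted p = 0.0737) and with the compared libraries fitted alone (edgeR adjusted p = 0.109). Under agonist it stood at 3.02 and 1.42 CPM in KO and at 0.362 and 0.360 CPM in WT liver (log2 2.59 ± 0.67, edgeR adjusted p = 0.0528), which DESeq2 (adjusted p = 0.0117) and limma (adjusted p = 0.0477) called. The agonist difference was not called with all 16 libraries in the fit. Tumours had 1.92 and 4.80 CPM, above WT liver of 30 days (0.288 and 0.590 CPM, log2 2.87 ± 0.70, edgeR adjusted p = 0.00913) and KO liver (0.799 and 0.547 CPM, log2 2.39 ± 0.68, edgeR adjusted p = 0.0241). The tumour calls ended without tumour replicate 2 (edgeR adjusted p = 0.0717 and 0.164), without WT replicate 1 (0.0852), without either KO library (0.0958 and 0.142), and with the 9-day WT livers as control (log2 1.10, edgeR adjusted p = 0.205). The DKO call against KO ended without DKO replicate 1 (0.0592) or 2 (0.221) and without KO replicate 1 (0.263).

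Ccl7, which also binds Ccr2 and lies beside Ccl2, stood at 1.10 and 2.95 CPM in DKO liver and at 0.0804 and 0.318 CPM in WT liver (log2 3.13 ± 1.02, edgeR adjusted p = 0.0431). The call ended without DKO replicate 2 (edgeR adjusted p = 0.204) or either WT library (0.208 and 0.0996). In tumours the receptor Ccr2 stood at 2.25 and 2.37 CPM, against 3.20 and 6.85 CPM in KO liver (log2 −1.14 ± 0.54, edgeR adjusted p = 0.139).

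Ccl6 and Ccl9, rodent CC ligands of Ccr1 that lie side by side on chromosome 11, were called in opposite directions in DKO against KO liver. Ccl6 stood at 198.3 and 73.9 CPM there, against 10.6 and 25.1 CPM in WT liver and 16.3 and 27.5 CPM in KO liver of 9 days. It rose by a log2 fold change of 2.92 ± 0.69 against WT (edgeR adjusted p = 0.0118) and 2.64 ± 0.68 against KO (edgeR adjusted p = 0.0202). Ccl9 stood at 77.8 and 23.3 CPM in DKO liver, 102 and 93.0 CPM in WT liver and 177 and 314 CPM in KO liver. It fell against KO (log2 −2.27 ± 0.48, edgeR adjusted p = 0.00799) and was not called against WT (log2 −0.94 ± 0.46, edgeR adjusted p = 0.155). The Ccl6 calls ended without DKO replicate 1 (log2 2.04, edgeR adjusted p = 0.0835 against WT and 1.77, 0.137 against KO), without WT replicate 1 (0.102) or without either KO library (0.145 and 0.0723), and the Ccl9 call ended without KO replicate 2 (0.0585) or when the compared libraries were fitted alone (0.0522).

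In 3 groups of 30 days Ccl9 lay between 264 and 333 CPM, apart from vehicle-treated WT liver. WT liver had 116 and 71.8 CPM, KO liver 287 and 291 CPM, WT liver under agonist 264 and 333 CPM and KO liver under agonist 319 and 286 CPM. No value of these 3 groups overlapped vehicle WT liver. The log2 differences were 1.62 ± 0.47 for KO in vehicle (edgeR adjusted p = 0.217) and 1.67 ± 0.47 for agonist in WT (edgeR adjusted p = 0.552), neither called, and both comparisons use the vehicle WT libraries. At 9 days the KO difference was 1.33 ± 0.47 (edgeR adjusted p = 0.308). In KO liver the agonist difference was 0.07 ± 0.46 (edgeR adjusted p = 0.978), and the test of an unequal agonist effect gave −1.60 ± 0.65 (edgeR adjusted p = 0.820). Tumours had 110.7 and 276.9 CPM (log2 1.05 ± 0.52 against WT, edgeR adjusted p = 0.145).

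The receptor Ccr1, found on neutrophils and monocytes, showed the largest called fold change among the 33 members in DKO liver. It stood at 8.24 and 4.36 CPM there, against 0.322 and 0.318 CPM in WT liver and 0.296 and 0.682 CPM in KO liver of 9 days. The rise was 4.28 ± 0.91 on the log2 scale against WT (edgeR adjusted p = 0.00709) and 3.61 ± 0.86 against KO (edgeR adjusted p = 0.0139). In the other 12 livers Ccr1 ranged up to 2.18 CPM, reached in KO liver under agonist. The call against WT ended without either WT library (edgeR adjusted p = 0.0555 and 0.0545), where the log2 fold change was 4.28 and 4.27. Against KO it ended without DKO replicate 1 (0.0626) or either KO library (0.109 and 0.0626).

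Ccl3, Ccl4 and Ccl5 are inflammatory CC ligands that draw T cells and macrophages. Ccl3 had 1 count in the WT livers of 30 days together, 18 in KO liver, 13 in WT liver under agonist and 15 in tumours. Its tumour call against WT (edgeR adjusted p = 0.0298) is a ratio of 17.0 with a 95% counting interval (counting error only) of 2.61 to 715, and the call ended when any of the 4 libraries was left out. With the WT livers of 9 days as control, where Ccl3 stood at 0.161 and 0.891 CPM, the log2 difference was −0.10. Ccl4 had 2 counts in the WT livers of 30 days and 18 in KO liver, a ratio of 8.08 with a counting interval of 1.93 to 71.8, and was not called (edgeR adjusted p = 0.489). Ccl5 ranged from 0.914 to 3.55 CPM over the livers and was not called (lowest edgeR adjusted p = 0.367).

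Ccl24, an eosinophil ligand of Ccr3 made by macrophages, fell in tumours. It stood at 0.113 and 0.152 CPM in tumours, against 3.07 and 1.09 CPM in WT liver and 1.71 and 2.01 CPM in KO liver of 30 days. The log2 fold change was −3.82 ± 0.81 against WT (edgeR adjusted p = 0.00469) and −3.71 ± 0.81 against KO (edgeR adjusted p = 0.00691), and both calls held when any library was left out. In DKO liver Ccl24 was at 4.66 and 7.03 CPM, a difference of 1.74 ± 0.60 from KO liver of 9 days (2.74 and 0.882 CPM) that was not called (edgeR adjusted p = 0.0618). Ccr3 varied 56.6-fold among livers, from 0.370 to 20.9 CPM, with its extremes in KO and WT liver of 9 days, and was not called (log2 −1.78 ± 0.93 in KO at 9 days, edgeR adjusted p = 0.566). Over 7 Kupffer cell markers the tumours summed to 94.7 and 155.3 CPM, against 534.5 to 929.6 CPM in the vehicle livers of 30 days. Of these 7 markers, 5 fell against WT, as did 13.8% of all genes, and 7 against KO, as did 12.2% of all genes. Their part in the Ccl24 result was not tested.

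Ccl22, a dendritic cell and macrophage ligand of Ccr4, had 0 counts in the tumours and 19 in KO liver of 30 days, which makes it at least 5.02-fold lower with a floor of 3 counts set for the whole group (edgeR adjusted p = 0.0194). Of the 19 counts, 18 lay in KO replicate 2. WT liver of 30 days had 3 counts, so no fold is given against it. The call against KO ended without either tumour library (edgeR adjusted p = 0.0506 and 0.0950) or KO replicate 2 (0.237). Ccl21a, which guides Ccr7-bearing dendritic cells and T cells into lymph nodes, had 1 count in the tumours and 26 in KO liver (23 of them in replicate 2), a ratio of 20.6 with a counting interval of 3.39 to 845, and was not called (edgeR adjusted p = 0.0603). Ccr7 stood at 2.89 and 2.32 CPM in DKO liver and at 0.482 and 1.08 CPM in WT liver (log2 1.67 ± 0.71, edgeR adjusted p = 0.106).

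Cxcl16, a membrane-bound ligand of Cxcr6 that also serves as a scavenger receptor, was called higher in DKO against KO liver and in tumours against WT liver. It stood at 47.4 and 25.3 CPM in DKO, 15.1 and 13.8 CPM in KO and 13.7 and 22.8 CPM in WT liver of 9 days. The log2 fold change was 1.34 ± 0.36 against KO (edgeR adjusted p = 0.0228) and 0.996 ± 0.35 against WT, which missed the threshold (edgeR adjusted p = 0.0594). Tumours had 25.5 and 16.4 CPM and WT liver of 30 days 8.72 and 7.58 CPM (log2 1.36 ± 0.38, edgeR adjusted p = 0.0183), but with the 9-day WT livers as control the difference was 0.19 (edgeR adjusted p = 0.726). Against KO liver of 30 days, at 8.565 and 12.4 CPM, the tumour difference was not called. The DKO call ended without DKO replicate 1 (edgeR adjusted p = 0.177) or either KO library (0.105 and 0.129), and the tumour call without tumour replicate 1 (0.108) or either WT library (0.0930 and 0.118). Cxcr6 on T cells and NK cells, the B cell ligand Cxcl13 and its receptor Cxcr5 were not called in any comparison (lowest edgeR adjusted p = 0.157, 0.185 and 0.264). Ccr6, the receptor of Ccl20, was not tested and reached 0.350 CPM in liver.

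Over the 14 livers, the members whose levels ranked most like Cxcl10 were Ccl4 (Spearman rho 0.811), Ccl3 (0.798) and Ccl6 (0.719). Those most like Cxcl1 were Ccl5 (0.802), Cxcl11 (0.635) and Cxcl9 (0.578). Those most like Ccl2 included Ccl12 (0.838) and Cxcl16 (0.815). These are descriptions over libraries that share genotype, treatment and depth.

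Chemokine genes with other names were also called in DKO liver. Of 11 tested genes on a list of 12, 4 rose against WT and 0 fell: Cx3cl1 (log2 3.21), its receptor Cx3cr1 (2.77), the platelet chemokine Pf4 (1.90) and Ccrl2 (1.63), with a median of 1.16 against 0.01 for all genes, 12.6% of which were called higher. Cx3cr1 rose as well in KO liver under agonist (log2 2.67, edgeR adjusted p = 0.0103), where 1 other gene of the list was called, the atypical receptor Ackr1, which fell (log2 −2.16, edgeR adjusted p = 0.0461). Of all genes, 3.05% were called higher and 1.91% lower in KO against WT liver under agonist. In tumours against WT, 2 of the 11 rose, Cx3cr1 (log2 1.88, edgeR adjusted p = 0.00696) and Pf4 (2.40, edgeR adjusted p = 0.0136), and 2 fell. There 16.3% of all genes were called higher and 13.8% lower. Against KO 0 rose and 4 fell, where 12.9% of all genes were called higher and 12.2% lower. Those that fell were mostly atypical receptors, which bind chemokines without G protein signalling: Ackr1 and Ackr4 against WT (log2 −3.35 and −2.32), and Ackr1, Ackr2, Ackr4 and the dendritic cell receptor Xcr1 against KO. Ackr3, the atypical receptor of Cxcl12, was not called in any comparison.

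Of 18 tested inducers of chemokine transcription, 2 rose in KO liver of 30 days and 0 fell, among them Irf7, a transcription factor of the interferon response (log2 2.699, edgeR adjusted p = 0.00543), with a median of 0.33 over the 18 and 0.03 over all genes, 0.516% of which were called. With both genotypes under agonist, 4 of the 18 rose in KO and 0 fell, among them Irf7 (log2 2.59), the pattern receptor Tlr2 (2.43) and Nfkb2 (1.10), with a median of 0.78 over the 18 and −0.01 over all genes, 3.05% of which were called higher. Against KO liver, Irf7 (log2 −2.00), Il1a and Nfkb1 were among 4 that fell in tumours, while Nfkb2 rose, where 25.1% of all genes were called. Against WT liver, 3 rose in tumours, Tnfaip3 (log2 2.20), Relb (2.05) and Nfkb2 (1.46), and Il1a fell (−1.67), where 30.2% of all genes were called. In DKO liver 1 of the 18 was called against WT, Irf7 (log2 0.99), where 26.4% of all genes were called.

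Adhesion molecules, which stop rolling leukocytes on the vessel wall, were called in DKO liver for 5 of 10 tested genes against WT, all higher, with Vcam1 (log2 2.94), Itgam (2.81), Itgb2 and Sele among them. The median of the 10 was 1.44, and that of all genes, 12.6% of which were called higher, was 0.01. In receptor signalling, 4 of 15 genes (a median of 1.01) rose there and 0 fell, where 26.4% of all genes were called and 12.6% called higher; among them were Rgs1 (log2 3.20) and Rgs2 (2.29), which dampen G protein signals. Of the 10 adhesion genes, 1 was called in KO liver with agonist against vehicle, Icam1, which rose, where 0.869% of all genes were called. Icam1 was also the 1 called in KO against WT liver under agonist, again higher, where 3.05% of all genes were called higher.

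Markers of some cell types also differed between groups. In DKO liver against WT, 7 of 11 macrophage and monocyte markers rose (Itgax, Gpnmb, Ly6c2, Trem2, Spp1, Fcgr1 and Cd68). So did 6 of 8 stellate and fibroblast markers, and 5 of 8 hepatocyte markers fell. The median log2 fold changes of these lists were 2.09, 2.31 and −1.33, against 0.01 for all genes. Of all genes, 12.6% were called higher and 13.8% lower. Of 7 Kupffer cell markers 0 rose and 1 fell, C6, and 0 markers of T cells, B cells or NK cells were called. The 9 T cell markers summed to 10.9 and 10.3 CPM in DKO and 7.40 and 9.39 CPM in WT liver of 9 days. The 11 macrophage markers summed to 1667 and 764.3 CPM in DKO, 280.9 and 516.5 CPM in WT liver and 339.4 and 651.8 CPM in KO liver of 9 days. Spp1, which is among them, is also on the list of bile duct markers, and its share of the sum is not given here. DKO replicate 1, with the higher sum, was also the higher DKO library for Ccl6, Ccr1, Ccr2, Cxcr4, Cxcl14 and Cxcl16, while replicate 2 was higher for Ccl2, Ccl7 and Cxcl10. Under agonist the same sum was 846.8 and 493 CPM in KO and 248.1 and 192.8 CPM in WT liver. Of the 11 markers 4 were called higher there, as were 3.05% of all genes. In tumours 5 of 11 macrophage markers rose against WT and 0 fell (574.7 and 409.1 CPM against 237.9 and 96.1 CPM). Against KO liver of 30 days, 2 of 11 rose, Cd68 and Cd14, and 1 fell, Ly6c2, with a median of 0.04. Of all genes, 12.9% were called higher and 12.2% lower in tumours against KO. The sums in that KO liver, 275.6 and 514.2 CPM, overlapped those of the tumours. Of 7 sinusoidal endothelium markers, 5 fell in tumours against WT and 1, Lyve1, rose (log2 2.75). In tumours against WT, 16.3% of all genes were called higher and 13.8% lower. In DKO liver against WT, 2 of these 7 endothelial markers rose, Lyve1 and Pecam1, and 0 fell, with a median of 0.78. The part of these cell types in the chemokine results was not tested.

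**Figure D4:**
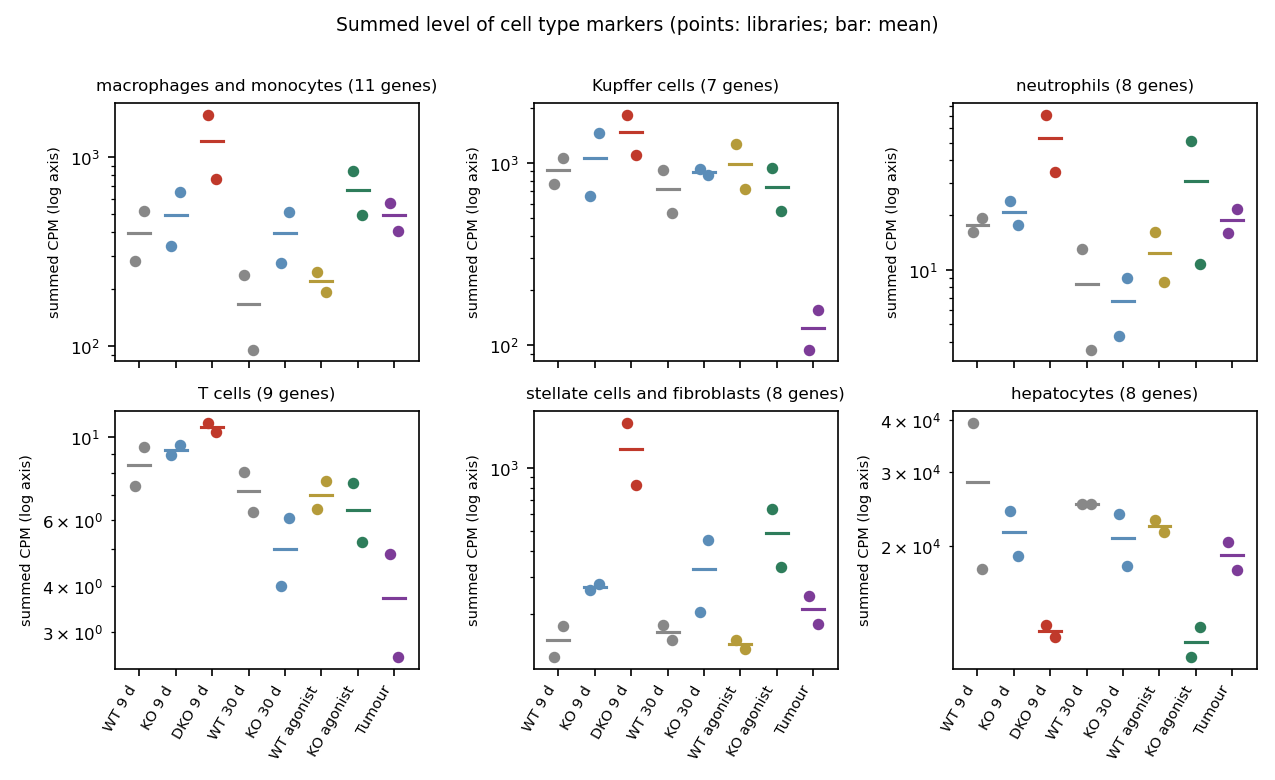
Summed CPM of marker genes of 6 cell types on log axes, 1 panel per type, with both libraries of each group as points and their mean as a bar. The mean of the macrophage markers is highest in DKO liver (1667 and 764.3 CPM), where replicate 2 lies below replicate 1 of KO liver under agonist (846.8 CPM), and Kupffer cell markers are lowest in the tumours (94.7 and 155.3 CPM).

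The other 15 named genes fell below the count rule. No count was seen in any library for Ccl21b, Ccl21d, Ccl26, Ccl27b and Cxcl15. Over all 16 libraries together, Cxcl5 had 60 counts, Ccl28 50, Ccl8 49, Ccl17 29, Ccr4 29, Cxcr1 27, Ccl20 21, Ccl1 16, Ccr8 12 and Cxcl3 8. Of the 60 Cxcl5 counts, 46 lay in the DKO livers and 3 in the WT livers of 9 days. DKO replicate 1 held 38 of them (0.907 CPM) and replicate 2 held 8 (0.128 CPM), the latter near WT replicate 2 (0.0954 CPM). Of the 21 Ccl20 counts, 15 lay in KO liver under agonist (5 in replicate 1 and 10 in replicate 2) and 0 in WT liver under agonist, which makes it at least 3.74-fold higher with a floor of 3 counts set for the whole group.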

How the data were processed

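Per the submitters' processing notes, the authors used fastp, STAR 2.7.3 and featureCounts with GRCm38.p6 (mm10); no source used here gives the annotation release. The counts deposited by the authors are whole reads per gene. The normalized signal deposited by the authors equals the counts times 1 factor per library (largest relative deviation 1.51e-06). The members, gene lists and comparisons were chosen with earlier results of these data known.

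An edgeR 4.0.16 model (in R 4.3.3) held the 14 livers after filterByExpr and TMM scaling, with 1 coefficient per group and 7 residual degrees of freedom; tumour comparisons used all 16 libraries and 8. Each SE was taken from the F statistic, as |log2 fold change| / sqrt(F). The series text calls the libraries of a group biological replicates. The script was tested on simulated data. Text names every called member, the 2 uncalled members with the smallest p, and a fixed set of followed members. Alternatives were RLE scaling, no filter, DESeq2 1.42.0, limma 3.58.1 on the normalized values plus 0.5, other library sets, a replicate block and leaving out each library. Lengths and positions come from GENCODE M21, and promoters from RefSeq. Counting intervals are exact 95% intervals and cover counting error only. Some results that these rules select are not reported here.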

Additional observations from a re-analysis of the deposited data

How the results depend on the processing

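Without a low-count filter, edgeR called 3 members for KO at 9 days, 6 for KO at 30 days, 19 for DKO against WT, 19 for DKO against KO, 1 for agonist in WT, 4 for agonist in KO, 12 for KO under agonist, 2 for the unequal agonist effect, 0 for the unequal time effect, 9 for tumours against WT and 10 for tumours against KO; the cause was not tested. DESeq2 called 3 for KO at 30 days and 6 for KO under agonist, and limma 5 for KO under agonist and 8 for tumours against KO. With all 16 libraries in the fit, KO under agonist had 1 call. The member counts of this paragraph stand without the share of all genes called under the same setting. They cannot be read as particular to the members. With the compared libraries alone, tumours had 4 calls against WT and 1 against KO. The cause was not tested. Among the tumour calls that ended there were Ccl27a against WT and Ccl2 against KO. So did those of Ccl27a and Ccl2 in DKO against KO and of Ccr2 and Cxcl14 in KO under agonist. With all 16 libraries in the fit, Cxcl1 and Ccl2 in DKO against KO and Cxcl14 in KO under agonist lost their calls. Limma did not call Ccl7 in DKO against WT. Leaving out 1 library at a time gave 5 to 10 calls for DKO against WT, 4 to 10 for DKO against KO, 0 to 1 for KO under agonist, 3 to 7 for tumours against WT and 2 to 5 for tumours against KO. Of 612 fold changes of named members under an alternative, 496 kept direction and side of the threshold, 82 lost and 33 gained a call, and 1 changed sign, Ccl3 in tumours with the 9-day WT livers as control (log2 −0.10). The labels give groups the same replicate numbers, and nothing says that a number marks a shared animal or day. Deviations of same-numbered libraries correlated at −0.129 to 0.443 between groups, and at 0.203 to 0.443 in the 6 pairs of 30-day liver groups, and replicate 1 was the shallower library throughout. With the replicate block, KO under agonist had 4 calls in place of 2 (Cxcl10 added at an edgeR adjusted p of 0.0308 and Ccl2 at 0.0499), DKO against WT 10 and DKO against KO 11. The rule of 10 counts in 1 or in 4 libraries would have given 43 or 33 members in place of 38. With 2 libraries per group, differences of low members such as Ccl3, Ccl7, Cxcl2 and Ccr1 were at the limit of the depth.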
